A study of Homo sapiens with 4 samples.

Results

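The interleukin-1 family and its receptors were followed as 10 genes, taken by gene symbol from the deposited count table of 60617 genes: IL1A, IL1B, IL1RN, IL1R1, IL1R2, IL1RAP, IL18, IL33, IL36G and IL36RN. All 10 were found, and 8 of them had enough counts to be tested among 15170 genes; IL33 and IL36G did not. The libraries came from polyA RNA of SCC13, a line derived from a human cutaneous squamous cell carcinoma and grown in CnT-07 medium. The CELF2 knockdown group held 2 libraries of cells infected with a lentivirus that expressed an shRNA against CELF2, and the control shRNA group held 2 libraries of cells infected with a lentivirus that expressed a scrambled shRNA. The labels give the genotype as WT in both groups. The sources used here do not state whether both knockdown libraries carried 1 hairpin, nor whether replicates were separate cultures. The p-values therefore cover the spread of these 4 libraries alone, and that spread may be technical.

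Interleukin-1 alpha and beta are alarm cytokines that signal through the receptor IL1R1 with its accessory chain IL1RAP, the adaptor MYD88 and IRAK kinases, which end in NF-kB and MAP kinase activation. The pathway is held back by a receptor antagonist (IL1RN), which occupies IL1R1 without signalling, and by a decoy receptor (IL1R2), which binds the ligand without a signalling domain. Keratinocytes are known for storing interleukin-1 alpha and for releasing it on injury. In this family, interleukin-1 beta and interleukin-18 are made as precursors that caspase-1 cuts in the inflammasome.

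The knockdown libraries held 19928788 and 23177056 counts and the control libraries 27898889 and 17649090. A floor of 3 counts stood between 0.107 and 0.178 CPM (the count scaled to a common library size after TMM normalisation) over the 4 libraries. CELF2 itself had 0 and 0 counts in the knockdown libraries, against 1 and 0 in the control libraries, so a loss of the target was not detectable at this depth and its counts do not check the labels. Of 14 keratinocyte markers used to check the cell type, all were counted, and their summed level was 28921 and 21409 CPM in the knockdown libraries, against 13171 and 21602 CPM in the control libraries. Of these, 12 of 14 had a log2 fold change above 0 (median 0.58), 4 were higher at an unadjusted p below 0.05, and 0 passed the adjusted threshold. Among all tested genes 12.1% were higher at that unadjusted p (edgeR). Of 12 markers of monocytes and macrophages, cells known as a source of IL1B, 9 had at most 3 counts in every library, and PTPRC, CD163, FCGR3A, TYROBP and C1QA were at 0 throughout. CD14 had 10.7 and 2.02 CPM in the knockdown libraries, against 1.22 and 0.356 CPM in the control libraries. Summed markers of fibroblasts (8 genes, 5 of them at 0 throughout) stood at 38.1 and 21.1 CPM in the knockdown, against 13.3 and 16.3 CPM in the controls, nearly all of it COL1A1. Summed endothelial markers (6 genes) stood at 8.83 and 8.59 CPM in the knockdown, against 4.72 and 3.39 CPM in the controls. Most of this was ERG, with 7.01 and 6.36 CPM in the knockdown, against 4.04 and 3.03 CPM in the controls. VWF had 10 and 14 counts in the knockdown libraries, against 0 and 0 in the control libraries. These were the 2 endothelial markers tested. Both were higher at an unadjusted p below 0.05 (edgeR), as were 12.1% of all tested genes, and 0 passed the adjusted threshold. Summed melanocyte markers (6 genes) stood at 9.03 and 9.05 CPM in the knockdown, against 8.83 and 6.12 CPM in the controls, with MLANA, TYR and TYRP1 at 0 throughout.

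Of the 8 tested members, 0 passed an adjusted p of 0.05 (quasi-likelihood test of edgeR, adjusted by Benjamini-Hochberg over the 15170 genes). Of all tested genes 133 (0.877%) passed, with 0.606% higher and 0.27% lower. DESeq2 called 2 members, IL1B and IL1RN, both higher; it called 9.48% of the 14581 genes to which it gave an adjusted p, 5.3% of them higher. By limma-voom 0 members and 0% of all tested genes were called. At an unadjusted p below 0.05 the same 2 members stood higher in the knockdown, where 22.1% of all tested genes were under that value in either direction and 12.1% were under it and higher. In 3 of the 8 tested members the 2 groups of libraries did not overlap (IL1B and IL1RN higher, IL18 lower). Among all tested genes 54.9% did not overlap, 27.1% higher and 27.8% lower. The median log2 fold change (knockdown over control) of the 8 members was 0.22, beside -0.0036 for all tested genes, and without control replicate 2 it was 1.04, and leaving out knockdown replicate 2 gave -0.10. Of the 133 genes called, 69.2% were higher, and after a correction for GC content 34.5% of 542 were.

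The promoter windows of the members with the highest fold changes, IL1B and IL1RN, are shown next to that of IL1A, the most abundant ligand, so that the letters at their starts can be compared. Each runs 5′ to 3′ on the strand of the gene from 250 bases before to 50 bases after a RefSeq transcription start (GRCh38.p14), and capitals mark the motif matches named below. IL1RN has 3 listed starts, of which the first and the last are printed; counts per gene do not tell which start was used. The windows are chr2:112784444-112784743 (minus strand) for the first start of IL1A, chr2:112836730-112837029 (minus strand) for IL1B, and chr2:113117721-113118020 and chr2:113127348-113127647 (plus strand) for IL1RN.
IL1A, start 1: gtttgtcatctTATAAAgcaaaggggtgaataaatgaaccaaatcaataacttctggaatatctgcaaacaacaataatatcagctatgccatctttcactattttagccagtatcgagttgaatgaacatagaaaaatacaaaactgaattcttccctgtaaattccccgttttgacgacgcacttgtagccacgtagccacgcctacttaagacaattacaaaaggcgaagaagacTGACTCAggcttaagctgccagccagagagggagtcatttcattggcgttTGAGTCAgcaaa
IL1B: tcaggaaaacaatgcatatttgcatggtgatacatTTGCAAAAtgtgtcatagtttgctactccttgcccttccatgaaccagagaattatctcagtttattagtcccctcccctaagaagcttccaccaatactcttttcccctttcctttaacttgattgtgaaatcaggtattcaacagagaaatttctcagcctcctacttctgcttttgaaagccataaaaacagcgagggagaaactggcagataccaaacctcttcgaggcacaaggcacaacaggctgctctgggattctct
IL1RN, start 1: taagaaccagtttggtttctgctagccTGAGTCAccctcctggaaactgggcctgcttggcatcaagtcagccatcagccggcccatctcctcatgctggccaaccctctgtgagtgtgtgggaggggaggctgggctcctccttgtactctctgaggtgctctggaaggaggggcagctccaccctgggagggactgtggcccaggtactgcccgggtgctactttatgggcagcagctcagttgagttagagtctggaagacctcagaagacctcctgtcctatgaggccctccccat
IL1RN, start 3: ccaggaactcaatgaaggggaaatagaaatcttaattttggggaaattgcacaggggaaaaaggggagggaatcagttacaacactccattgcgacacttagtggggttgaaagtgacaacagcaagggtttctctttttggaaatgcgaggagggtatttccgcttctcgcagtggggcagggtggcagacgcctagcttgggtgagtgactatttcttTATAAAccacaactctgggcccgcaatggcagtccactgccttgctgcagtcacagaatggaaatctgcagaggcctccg

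Positions are counted from 0 at the start, and AP-1, C/EBP and kB were searched on both strands. IL1A held the AP-1 motif TGANTCA at 2 places, from -12 and from 38 relative to the start, and IL1RN held it once, from -223 of its first start. AP-1 is the family of Jun and Fos factors. IL1B held the C/EBP motif TTGCNNAA once, from -215. TATAAA, searched on the strand of the gene, lay 30 bases before the third start of IL1RN and far upstream in the window of IL1A. RefSeq windows were at hand for 9 of the 10 members (18 windows in all; IL18 had none). AP-1 was found in 3 of the 18 windows, C/EBP in 2, TATAAA in 3 and the kB consensus of NF-kB in 2 (IL1R2 and IL36RN). Of 35116 windows of the same length, 7.71% held the AP-1 motif, 10.5% the C/EBP motif, 7.33% TATAAA and 11.3% the kB consensus. The windows of IL1A overlap each other, no 2 matches of different motifs overlap, and a match is a description of letters only.

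**Figure D1:**
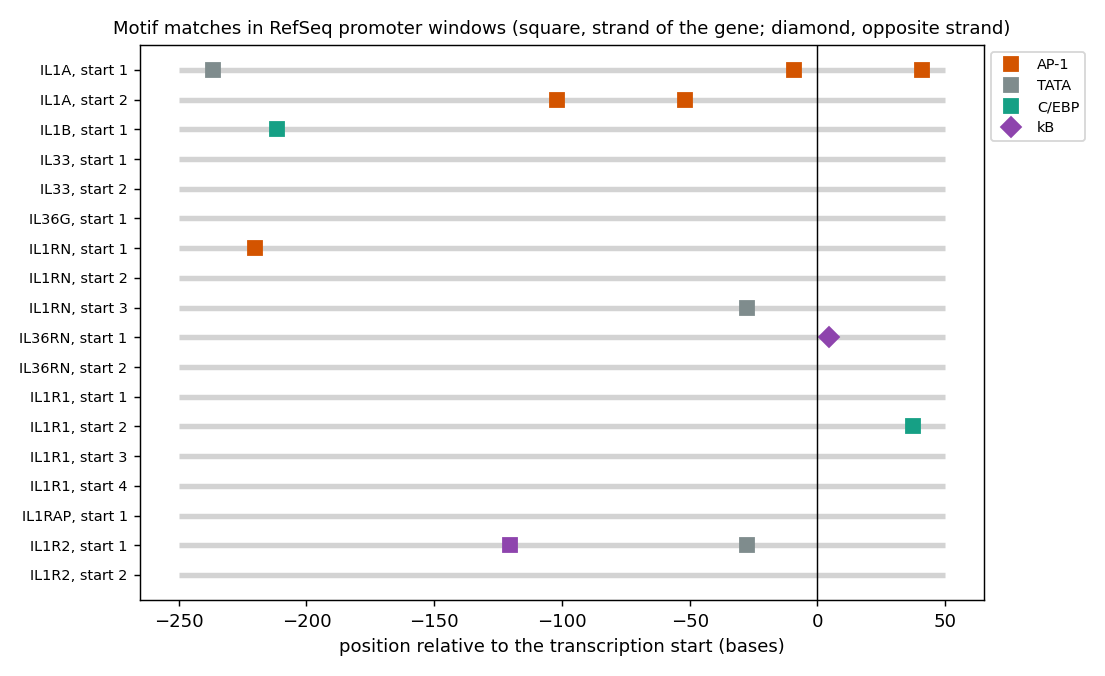
Motif matches in the 18 RefSeq promoter windows of 9 members, by position in bases relative to the transcription start (vertical line). Each grey bar is 1 window, squares are matches on the strand of the gene (or palindromes) and diamonds on the opposite strand; 8 of the windows hold a match, and the AP-1 matches of IL1A appear in both of its overlapping windows.

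Among the ligands, IL1B showed the highest fold change of the tested members. IL1B (ENSG00000125538, GRCh38 chromosome 2, 112829751 to 112836903, minus strand) had 13.1 and 7.45 CPM in the knockdown libraries, against 3.65 and 3.74 CPM in the control libraries. Both knockdown libraries lay above both controls, and they differed more from each other than the controls did. The log2 fold change was 1.48 ± 0.36 (SE), a 2.78-fold higher level, and it did not pass (edgeR, adjusted p = 0.0786). DESeq2 gave an adjusted p of 0.00636, with a range of 7.20e-04 to 0.347 over all 13 alternatives. With each library left out in turn the log2 fold change ran between 1.02 and 1.83. Its counts were 266 and 177 in the knockdown, against 102 and 63 in the controls. The summed monocyte and macrophage markers stood at 24.6 and 9.18 CPM in the knockdown libraries, against 11.2 and 5.70 CPM in the controls, mostly CD14 and CSF1R, with PTPRC at 0; their part in the value of IL1B was not tested.

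IL1A, the stored alarm cytokine, was the most abundant member and changed direction with the library left out. It had 58.5 and 71.2 CPM in the knockdown libraries, against 31.8 and 113.8 CPM in the control libraries. The 2 controls bracketed both knockdown libraries, and control replicate 2 stood 3.58-fold above control replicate 1. The log2 fold change was -0.16 ± 0.49 (SE; edgeR, adjusted p = 0.879). Leaving out control replicate 2 gave 1.05 and leaving out control replicate 1 gave -0.81, a change of sign. IL1A (ENSG00000115008) lies on chromosome 2, 112773915 to 112784590, minus strand.

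IL18, a cytokine that keratinocytes also hold as a precursor and that induces interferon gamma in lymphocytes, was the 1 member with both knockdown libraries below both controls. It had 26.9 and 21.7 CPM in the knockdown libraries, against 34.8 and 31.0 CPM in the control libraries. The log2 fold change was -0.44 ± 0.20 (SE), which did not pass (edgeR, adjusted p = 0.257), and it stayed below 0 with each library left out (-0.59 to -0.29). IL18 (ENSG00000150782) lies on chromosome 11, 112143251 to 112164117, minus strand.

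IL33 and IL36G were at or near the floor. IL33, a nuclear cytokine of barrier cells and the ligand of IL1RL1, had 6 and 8 counts in the knockdown libraries, against 1 and 3 counts in the control libraries. Summed over each group this is a ratio of 3.56 with an exact 95% interval of 1.12 to 14.9, which covers counting error only. With no filter on low counts IL33 could be fitted and did not pass (edgeR, adjusted p = 0.574). IL36G, an interleukin-36 of inflamed epidermis, had 0 and 3 counts in the knockdown libraries, against 0 and 0 in the control libraries, which is at or under the floor in every library, so no fold is given.

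The antagonists were led by IL1RN, whose level was the most even among replicates. IL1RN (ENSG00000136689, chromosome 2, 113107214 to 113134016, plus strand) had 15.2 and 14.4 CPM in the knockdown libraries, against 6.94 and 7.66 CPM in the control libraries. The means were 14.8 ± 0.569 CPM in the knockdown and 7.30 ± 0.515 CPM in the controls (SD, n = 2 each), a gap larger than either SD. The log2 fold change was 1.03 ± 0.25 (SE), or 2.04-fold, and did not pass (edgeR, adjusted p = 0.0779). DESeq2 gave an adjusted p of 0.0104, with a range of 0.00847 to 0.387 over all 13 alternatives. With each library left out the log2 fold change held between 0.95 and 1.12.

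IL36RN, the antagonist of the interleukin-36 receptor, rested on 1 library. It had 1.48 and 4.09 CPM in the knockdown libraries, against 1.39 and 1.96 CPM in the control libraries. Knockdown replicate 2 stood alone, and the other 3 libraries lay close together. On the log2 scale the fold change was 0.75 ± 0.56 (SE; edgeR, adjusted p = 0.474), and it was -0.17 without knockdown replicate 2. IL36RN (ENSG00000136695) lies on chromosome 2, 113058638 to 113065382, plus strand.

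**Figure D2:**
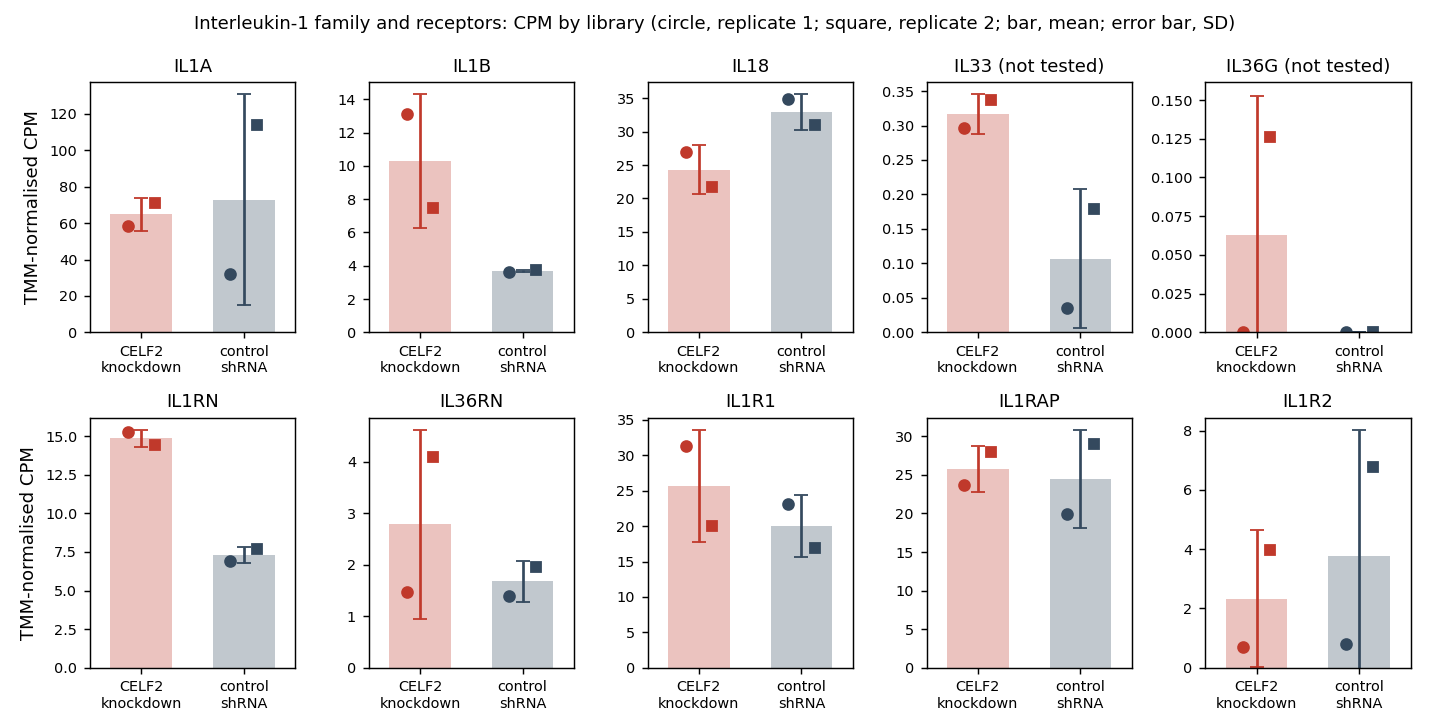
TMM-normalised CPM of the 10 members in each library, CELF2 knockdown left and control shRNA right, with circles for replicate 1, squares for replicate 2, bars for the mean and error bars for the SD (n = 2 each); each panel has its own axis from 0. Among the tested members IL1B and IL1RN have both knockdown libraries above both controls, IL18 has both below, and IL1R2 splits by replicate number in both groups. The untested IL33 also has both above, near the floor.

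For the signalling receptor and its accessory chain the groups overlapped. IL1R1 (ENSG00000115594, chromosome 2, 102064544 to 102179874, plus strand) had 31.3 and 20.0 CPM in the knockdown libraries, against 23.2 and 16.9 CPM in the control libraries. The log2 fold change was 0.35 ± 0.28 (SE; edgeR, adjusted p = 0.501), and it was 0.0084 without knockdown replicate 1 and 0.64 without knockdown replicate 2. IL1RAP, the accessory chain shared by the receptors for interleukin-1, interleukin-33 and interleukin-36, had 23.7 and 27.9 CPM in the knockdown libraries, against 20.0 and 28.99 CPM in the control libraries. Its log2 fold change was 0.08 ± 0.24 (SE; edgeR, adjusted p = 0.876). IL1R1 shares exon positions with an antisense gene, IL1R1-AS1, and IL1RAP (ENSG00000196083, chromosome 3, 190514051 to 190659750, plus strand) with AC108747.1 on the same strand, so both counts are uncertain.

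The decoy receptor IL1R2 differed more between replicates than between groups. IL1R2 (ENSG00000115590, chromosome 2, 101991844 to 102028544, plus strand) had 0.691 and 3.96 CPM in the knockdown libraries, against 0.787 and 6.77 CPM in the control libraries. Replicate 2 was 5.73-fold above replicate 1 in the knockdown and 8.61-fold above it in the controls. Knockdown over control gave a log2 fold change of -0.65 ± 1.01 (SE; edgeR, adjusted p = 0.746), and it ran between -2.41 and 1.59 with each library left out. The labels do not say what, if anything, the libraries with the same number share.

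**Figure D3:**
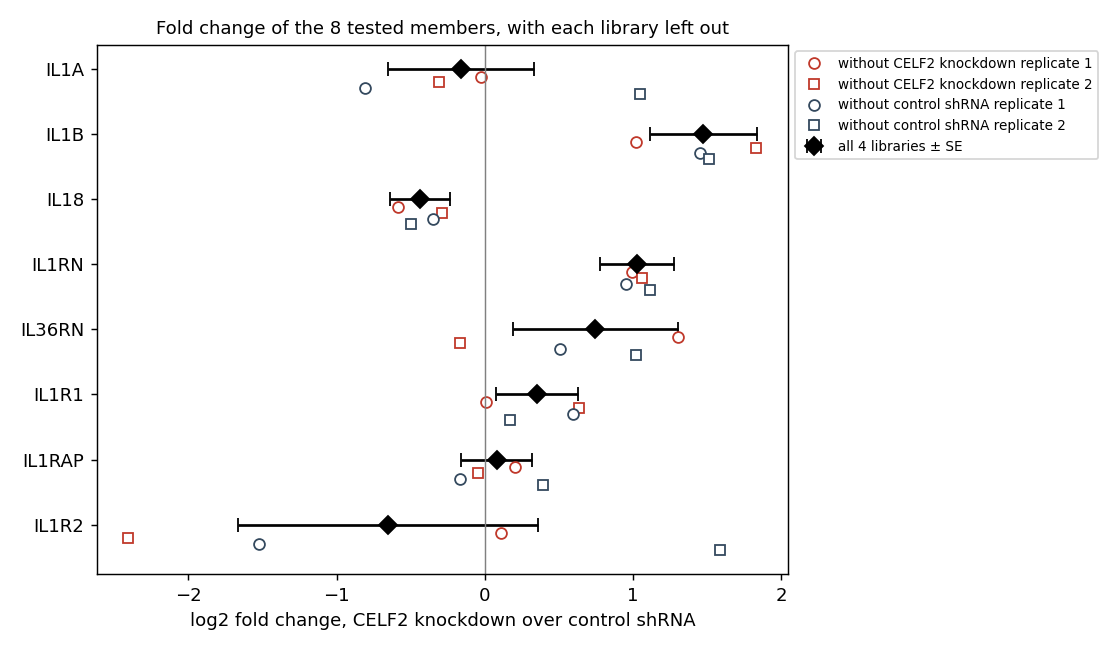
Log2 fold change (CELF2 knockdown over control shRNA) of the 8 tested members: black diamonds show all 4 libraries with the SE of the fit, and open symbols show the value with 1 library left out. IL1B, IL1RN and IL18 keep their side of 0 in all 4 such fits, IL1R1 comes to 0.0084 in 1 of them, and IL1A, IL36RN, IL1RAP and IL1R2 cross it in at least 1.

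The balance between antagonist and ligand was set out per library as a ratio of counts, not adjusted for gene length. IL1RN over IL1A plus IL1B was 0.213 and 0.184 in the knockdown libraries, against 0.196 and 0.0652 in the control libraries. Control replicate 2, the library with the most IL1A, had the low value, and control replicate 1 lay between the knockdown libraries. The mean log2 ratio was 0.81 higher in the knockdown (exact two-sided permutation test, p = 0.667; 4 libraries cannot give less than 0.333), and only 0.014 higher without control replicate 2. The decoy over the signalling receptor, IL1R2 over IL1R1, was 0.0221 and 0.197 in the knockdown libraries, against 0.0340 and 0.400 in the control libraries (exact permutation test, p = 0.667). IL36G was too low for a ratio with IL36RN.

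Levels were compared between genes only as CPM per kb of exon (exon length over all transcripts in GENCODE v29). IL1A stood first in both groups, with 30.5 ± 4.21 CPM per kb in the knockdown and 34.3 ± 27.3 in the controls (SD, n = 2 each). IL18 came second, with 9.25 ± 1.39 in the knockdown and 12.5 ± 1.02 in the controls. In the knockdown IL1RN (4.56 ± 0.175), IL1R1 (3.62 ± 1.12), IL1B (3.32 ± 1.30) and IL1RAP (2.23 ± 0.259) followed, where IL1R1, IL1B and IL1RAP overlapped with their neighbours and IL1RN lay just above IL1R1. In the controls the order was IL1R1 (2.83 ± 0.623), IL1RN (2.24 ± 0.158), IL1RAP (2.12 ± 0.553), IL1R2 (1.23 ± 1.38) and IL1B (1.19 ± 0.0219), where IL1R1 lay just above IL1RN and each later gene overlapped with its neighbour. IL36RN came after IL1RAP in the knockdown (0.844 ± 0.558), overlapping with IL1R2 (0.757 ± 0.752), and after IL1B in the controls (0.508 ± 0.121), without overlap. IL33 and IL36G stood last in both groups. IL1B stood at rank 5 of the 10 members in the knockdown and at rank 7 in the controls. The use of all annotated exons lowers the value of genes with many alternative exons, such as IL1RAP with 11.6 kb. In bulk RNA, fewer cells of a type and less RNA per cell cannot be told apart.

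**Figure D4:**
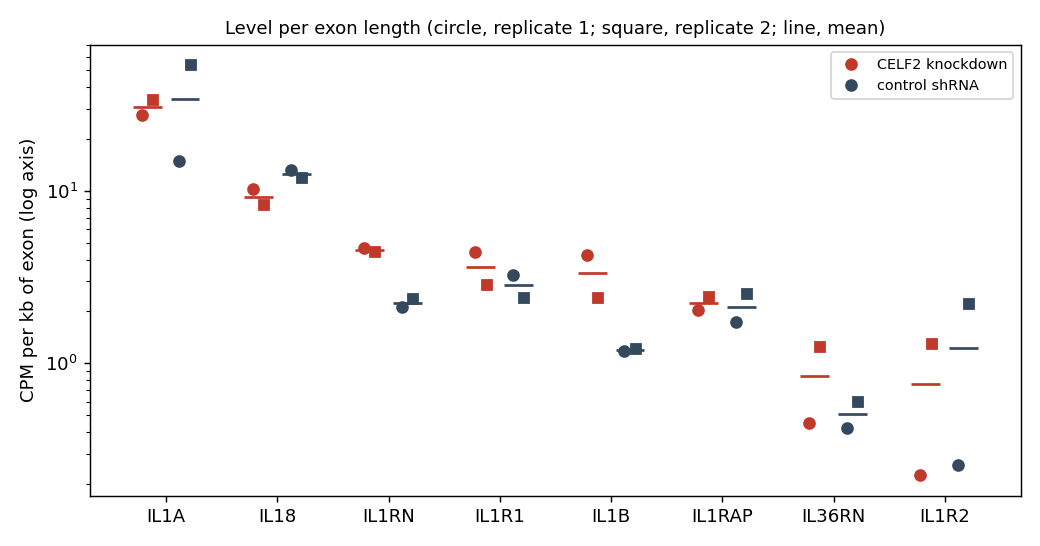
CPM per kb of exon on a log axis for the 8 tested members, ordered by their mean in the knockdown, with circles for replicate 1, squares for replicate 2 and lines for the mean; CELF2 knockdown is left of control shRNA for each gene. IL1A leads in all 4 libraries, by the least over IL18 in control replicate 1, and IL1R2 has the widest split between replicates.

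Of the members, 7 lie in 2 groups of neighbouring genes on chromosome 2. The ligand cluster runs from IL1A to IL1RN over 360 kb (112773915 to 113134016) and holds 9 protein-coding genes, all of the family. IL1B and IL1RN, at 2.78-fold and 2.04-fold, lie in the same cluster as IL1A, which stood at 0.894-fold. The 4 genes of it that are not members had at most 3 counts in every library, with IL36A and IL36B at 0 throughout. IL37 had 1 and 3 counts in the knockdown libraries, against 3 and 1 in the control libraries. IL1F10 had 0 and 1 counts in the knockdown libraries, against 0 and 0 in the control libraries. The receptor cluster runs from IL1R2 to IL18RAP over 461 kb (101991844 to 102452565) and holds 6 protein-coding genes. There IL1RL1, the receptor for interleukin-33 (chosen here after its values were seen), had 0.543 and 5.10 CPM in the knockdown libraries, against 0.608 and 5.41 CPM in the control libraries. It split by replicate number in both groups, as IL1R2 did, although its exons overlap those of IL18R1 and its counts are uncertain.

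Of the 8 other receptors and binding proteins of the family 5 were tested and 0 passed (edgeR; 0 at an unadjusted p below 0.05, 0 by DESeq2 and 0 by limma-voom), with a median log2 fold change of -0.15. Among all tested genes 0.877% passed (edgeR), 22.1% had an unadjusted p below 0.05 (edgeR), and DESeq2 called 9.48%. All 5 had a value below 0, as did 7638 of the 15170 tested genes. SIGIRR (-0.020 ± 0.26, SE) and IL1RL1 (-0.040 ± 1.10) lay close to 0. IL18BP, a secreted protein that neutralises interleukin-18, had -0.34 ± 0.29 (SE), IL18R1, a chain of the interleukin-18 receptor, -0.47 ± 0.41, and IL1RL2, the interleukin-36 receptor, -0.15 ± 0.50. SIGIRR, an inhibitory receptor of the family and likewise chosen after its values were seen, had 24.6 and 17.2 CPM in the knockdown libraries, against 18.2 and 24.2 CPM in the control libraries. The median was -0.59 without knockdown replicate 2.

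Genes of precursor cleavage and release showed no shared direction. Of 19 genes of inflammasomes, caspases and release 14 were tested and 0 passed (edgeR). An unadjusted p below 0.05 was found for 2, both higher, where 12.1% of all tested genes were under it and higher. DESeq2 called 2, both higher (it called 5.3% of all genes higher and 9.48% in either direction), and limma-voom called 0. The list had a median of 0.031 and as many values above 0 as below it. The median was 0.21 without control replicate 2, lay between -0.09 and -0.056 with any other library left out, and was -0.094 after the GC correction. NINJ1, which ruptures the plasma membrane late in lytic death, had 71.1 and 43.8 CPM in the knockdown libraries, against 29.7 and 30.4 CPM in the control libraries (log2 fold change 0.94 ± 0.25, SE). AIM2, an inflammasome sensor of cytosolic DNA, had 10.4 and 13.1 CPM in the knockdown libraries, against 6.11 and 4.99 CPM in the control libraries (1.08 ± 0.29). NLRP1, the main inflammasome sensor of human keratinocytes, had a log2 fold change of 0.91 ± 0.44. CASP1, the protease that cuts the precursors, had 14.1 and 17.5 CPM in the knockdown libraries, against 12.8 and 15.9 CPM in the control libraries, and was chosen here after its values were seen.

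Of 22 genes of receptor signalling 20 were tested and 0 passed (edgeR). An unadjusted p below 0.05 was found for 3, all higher, where 12.1% of all tested genes were under it and higher. DESeq2 called 1, which was higher (it called 5.3% of all genes higher and 9.48% in either direction), and limma-voom called 0. The list median was -0.021, and it lay between 0.042 and 0.089 with any 1 library left out. IRAK2, a kinase of the receptor complex, had 5.38 and 9.26 CPM in the knockdown libraries, against 1.22 and 3.15 CPM in the control libraries, a log2 fold change of 1.78 ± 0.52 (SE). MYD88, the adaptor of the pathway, had 42.7 and 33.1 CPM in the knockdown libraries, against 24.0 and 23.9 CPM in the control libraries (0.66 ± 0.20). TAB3, an adaptor of the TAK1 kinase, had 0.56 ± 0.20, and its exons overlap 2 antisense genes. The knockdown libraries lay above both controls in each of these 3 genes, which were named for the smallest p of the list. Of the 20 tested genes, 6 had both knockdown libraries above both controls and 3 had both below. Among all tested genes these shares were 27.1% and 27.8%.

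Of 13 NF-kB subunits and inhibitors all were tested and 0 passed (edgeR), with a median of 0.36. An unadjusted p below 0.05 was found for 4, all higher, where 12.1% of all tested genes were under it and higher. DESeq2 called 1, which was higher (it called 5.3% of all genes higher and 9.48% in either direction), and limma-voom called 0. NFKBIA, the inhibitor that NF-kB itself induces, had 84.4 and 76.2 CPM in the knockdown libraries, against 40.1 and 52.1 CPM in the control libraries (log2 fold change 0.80 ± 0.19, SE). TNIP1, a partner of the inhibitor A20, had 0.48 ± 0.17, and ZC3H12A, an RNase that cuts inflammatory mRNAs, 0.83 ± 0.30. Over the list of 13, 9 values were above 0 and 4 below. A correction for GC content gave a median of 0.076, leaving out control replicate 2 gave 0.63 and leaving out control replicate 1 gave 0.18.

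Of 26 genes that interleukin-1 induces in keratinocytes 19 were tested and 0 passed (edgeR). An unadjusted p below 0.05 was found for 5, all higher, where 12.1% of all tested genes were under it and higher. DESeq2 called 4, all higher (it called 5.3% of all genes higher and 9.48% in either direction), and limma-voom called 0. The list median was 0.64, with 13 values above 0 and 6 below. S100A9, which pairs with S100A8 in calprotectin, had 99.1 and 133.7 CPM in the knockdown libraries, against 58.0 and 50.4 CPM in the control libraries (log2 fold change 1.10 ± 0.20, SE; edgeR, adjusted p = 0.0534). Its partner S100A8 had 4.59 and 3.66 CPM in the knockdown libraries, against 1.61 and 0.654 CPM in the control libraries. ICAM1, an adhesion molecule for leukocytes, had 25.1 and 26.7 CPM in the knockdown libraries, against 7.11 and 14.1 CPM in the control libraries (1.30 ± 0.33), and its exons overlap other annotated genes, as do those of ZC3H12A and IL18BP. The libraries overlapped in 2 chemokines chosen here after their values were seen. CXCL1, which attracts neutrophils, had 2.66 and 3.50 CPM in the knockdown libraries, against 1.11 and 9.98 CPM in the control libraries (log2 fold change -0.82 ± 0.83, SE). CXCL8, a neutrophil chemokine, had 0.247 and 1.85 CPM in the knockdown libraries, against 0.393 and 0.654 CPM in the control libraries (1.06 ± 0.87). The list median was 1.19 without control replicate 2 and 0.34 without knockdown replicate 2. The keratinocyte markers had a median of 0.58, with 0 of 14 past the threshold. Libraries overlapped in 7 of 14 and did not in the other 7, which were all higher in the knockdown. Among all tested genes 54.9% did not overlap, 27.1% higher and 27.8% lower. The part of these markers in the values of this list was not tested.

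**Figure D5:**
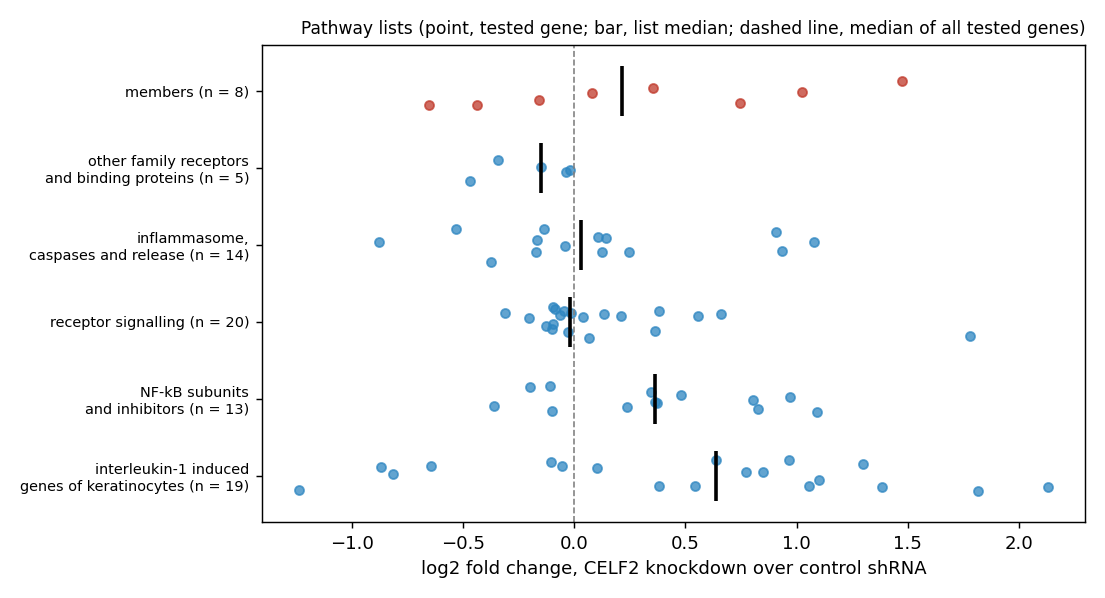
Log2 fold change (CELF2 knockdown over control shRNA) of each tested gene in 6 lists, with a bar at the list median and a dashed line at the median of all tested genes; vertical scatter within a list has no meaning. The medians run from -0.15 for the other family receptors to 0.64 for the interleukin-1 induced genes, and 0 of the genes shown passed (edgeR).

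IL1RN had the smallest p of the members and ranked 762 among the 15170 tested genes. The 5 tested genes whose log2 CPM profile, centred over the 4 libraries, lay closest to that of IL1RN were GGT7, AC010503.4, SPACA9, RNF187 and VPS18, with root mean square differences of 0.030 to 0.041 on the log2 scale. GGT7 had 50.04 and 46.5 CPM in the knockdown libraries, against 22.8 and 26.3 CPM in the control libraries. The likeness is a description over 4 libraries.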

How the data were processed

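The 4 SCC13 samples (2 CELF2 knockdown, 2 control shRNA, grouped by sample title) gave TruSeq polyA libraries, per the labels' protocols. The values used are whole-number counts for Ensembl genes, as the authors deposited them, not normalised; HISAT2, edgeR and GRCh38 are named in the submitters' processing notes. No source used here gives the counting program, the annotation release, the strand setting or how shared reads were handled.

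The counts were tested with edgeR 4.0.16 in R 4.3.3 (quasi-likelihood test, TMM, filterByExpr with a minimum count of 10, Benjamini-Hochberg adjustment over 15170 genes at 0.05). The common biological coefficient of variation was 21.6%. The same fit was first run on simulated counts. Their spread was set below that of these data, so that run does not give the power of the test here. SEs are the log2 fold change over the square root of F. DESeq2 1.42.0 and limma-voom (limma 3.58.1) were alternatives, beside other scalings, filters, a GC correction, a replicate block and each library left out, for which the tested genes were kept. Positions and exon lengths came from GENCODE v29 (GRCh38) and promoter windows from RefSeq (GRCh38.p14).

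The members and lists were chosen with earlier results of these data known. Genes named were the 10 members, those of each list past the threshold or otherwise its 3 with the smallest p, the 5 most like the member with the smallest p, and others marked as chosen later; no set test was made. Of 2 rows named SOD2, the 1 with counts was used.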

Additional observations from a re-analysis of the deposited data

How the results depend on the processing

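The number of genes past the threshold moved with most settings. Against 133 genes (92 higher, 41 lower), edgeR with DESeq2 size factors called 207 (76 lower), with total library counts 416 (306 and 110), with no filter 2139 (1343 and 796) and after a GC correction 542 (187 and 355); DESeq2 called 1382 (773 and 609) and limma-voom 0, with 3402 at an unadjusted p below 0.05. With the replicate number as a block edgeR called 1579 genes (952 and 627) and with the GC correction and the block 2804 (1195 and 1609). Leaving out 1 library each gave 0 to 305 genes (0 to 159 higher, 0 to 146 lower), with 0 without control replicate 1 (1668 at an unadjusted p below 0.05). Members past the threshold numbered 2 (IL1B and IL1RN) with no filter, with DESeq2, with the block and with GC correction and block. In the other fits to all 4 libraries the number was 0. Of all genes, the settings that called 2 members called 2139 of 25916, 1382 of 14581, 1579 of 15170 and 2804 of 15098, in that order. For IL1B the adjusted p ran from 7.20e-04 to 0.347 over 13 alternatives and for IL1RN from 0.00847 to 0.387; the cause was not tested. Under the block IL1B had a log2 fold change of 1.43 and IL1RN of 1.03 (adjusted p 0.0157 and 0.0319). Same-numbered libraries had correlated deviations across genes (r = 0.20), but only 2 pairs exist and the labels state no pairing.

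The value of IL1A turned to 0.18 with limma-voom, 0.096 with the block, 0.22 with GC correction and block and 1.05 without control replicate 2 (-0.81 to 1.05 with 1 library left out). Leaving out 1 library also turned IL1R2 (0.11 without knockdown replicate 1, 1.59 without control replicate 2; range -2.41 to 1.59), IL1RAP (-0.043 without knockdown replicate 2, -0.17 without control replicate 1; range -0.17 to 0.39) and IL36RN (-0.17 without knockdown replicate 2; range -0.17 to 1.31). The IL1R2 to IL1R1 balance, -0.82 on the log2 scale, ran between -2.60 and 0.96 with 1 library left out, and the IL1RN balance between 0.014 and 1.60. Log2 fold changes of IL1B, IL1RN and IL18 kept their direction in all 13 alternatives, while IL1R1 ran from 0.0084 (without knockdown replicate 1) to 0.64 (without knockdown replicate 2). IL33 and IL36G were limited by depth.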
